A study of Homo sapiens with 3 samples.

Results

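The dual-specificity MAP kinase phosphatases are enzymes that switch MAP kinases off. The 10 catalytically active members of the family, DUSP1, DUSP2, DUSP4, DUSP5, DUSP6, DUSP7, DUSP8, DUSP9, DUSP10 and DUSP16, were taken by gene name from the deposited gene tables, and all 10 were found, among 55827 gene names present in every table. Each had 1 locus with a single name in each library. DUSP5 and DUSP9 were chosen because they were known to differ from control in opposite directions, so their differences are given as a description. The study measured RNA in PLC, an established line of human hepatocellular carcinoma cells, harvested 48 hours after infection with viruses carrying short hairpin RNAs. Each of the 3 groups is a single library: a control given a non-targeting hairpin, a library with hairpins against DIS3L2 (shDIS3L2), an exoribonuclease that degrades uridylated RNA, and a library with hairpins against HNRNPU (shHNRNPU), the gene of the nuclear protein hnRNP U, which binds RNA. All 3 libraries therefore carry virus and a hairpin, and no uninfected cells are analysed here. The sources used here do not give the number of hairpins per target or whether they were pooled.

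MAP kinases relay signals from growth factor receptors (ERK) and from stress (JNK and p38), and are active while a threonine and a tyrosine in their activation loop are phosphorylated. The dual-specificity phosphatases remove both phosphates after docking to the kinase. Several of their genes are themselves transcribed in response to the kinases, which makes them feedback inhibitors whose RNA is often read alongside pathway activity, while RNA levels do not measure phosphorylation. The family is grouped by location and preferred kinase into inducible nuclear enzymes (DUSP1, DUSP2, DUSP4, DUSP5), cytoplasmic enzymes that prefer ERK (DUSP6, DUSP7, DUSP9), and enzymes that prefer JNK and p38 (DUSP8, DUSP10, DUSP16).

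Levels are in FPKM, which counts fragments relative to transcript length and to the library's mapped fragments, and the range in parentheses after a level is its deposited interval. It does not include variation from culture to culture. With 1 library per group, no difference here has a replicate check and no p-value was computed. The size rule asked for a log2 ratio, taken after adding 1 to each FPKM, of 1 or more in either direction, together with separate deposited intervals, and genes that met it are called higher or lower. DIS3L2 was at 7.61 FPKM in control, 3.23 in shDIS3L2 and 11.2 in shHNRNPU, and HNRNPU at 178, 232 and 33.5, so each targeted gene was lowest in the library labelled for it. Both loci are merged with a second overlapping name. Of 9 hepatocyte markers, 9, 8 and 9 were at 1 FPKM or more in control, shDIS3L2 and shHNRNPU, and their summed level was 13140, 3229 and 7815 FPKM, so the cells carry liver transcripts, at a lower sum in both knockdowns. Whether this has a part in the results for the phosphatases was not tested. In bulk RNA, fewer cells of a type and less RNA per cell cannot be told apart. The 7 fibroblast and stellate markers summed to 0.956 to 1.47 FPKM with none at 1 FPKM, and 3 endothelial markers to at most 0.0423. Of 5 blood cell markers, CD3E and HBB were listed at 0 in every library, PTPRC reached 0.442 FPKM in shHNRNPU alone, and CD68 lies in a locus merged with the abundant EIF4A1 and cannot be read. Relative to control, depth estimated from levels and their upper bounds had a median of 0.794 in shDIS3L2 and 0.861 in shHNRNPU. These medians are over 2201 and 2059 genes shared with control.

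The 10 genes summed to 345 FPKM in control, 261 in shDIS3L2 and 331 in shHNRNPU. In control DUSP9 alone held 66.4% of that sum, against 11.2% in shDIS3L2 and 13.5% in shHNRNPU, a difference for which it was chosen. The nuclear inducible enzymes together stood at 97.1 FPKM in control, 199 in shDIS3L2 and 256 in shHNRNPU, which is 28.1%, 76.1% and 77.4% of the family. These shares are set in large part by DUSP5 and DUSP9. Without both, the other 8 genes summed to 108 FPKM in control, 169.97 in shDIS3L2 and 233 in shHNRNPU, and the nuclear enzymes among them held 82.5%, 80.5% and 87.1% of that sum. With DUSP9 set aside, the most abundant gene, DUSP1, made up 75.3%, 57.3% and 69.5% of the other 9 in control, shDIS3L2 and shHNRNPU. Those 9 still include DUSP5, chosen for its difference, which made up 6.96%, 26.7% and 18.6% of them. The order of the libraries by the share of DUSP1 therefore depends on DUSP5. The level of DUSP1 was lowest in control.

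**Figure D1:**
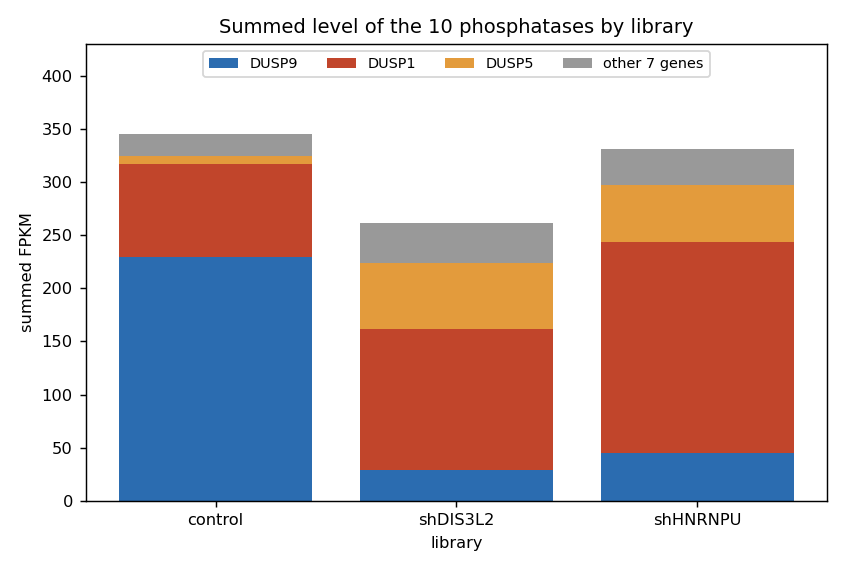
Stacked bars give the summed FPKM of the 10 phosphatase genes in each of the 3 libraries, split into DUSP9, DUSP1, DUSP5 and the other 7 genes. The bars reach 345, 261 and 331 FPKM, and DUSP9 fills 66.4% of the control bar against 11.2% and 13.5% of the knockdown bars.

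The order of levels can be read between genes because FPKM are scaled to transcript length. In control it ran from DUSP9 and DUSP1 through DUSP5, DUSP7, DUSP8, DUSP10, DUSP6 and DUSP16 to DUSP4 and DUSP2. The intervals of the neighbouring pairs DUSP7 and DUSP8, DUSP10 and DUSP6, DUSP6 and DUSP16, and DUSP4 and DUSP2 overlapped, so those pairs are not separated. In shDIS3L2 and in shHNRNPU the first 3 places were held by DUSP1, DUSP5 and DUSP9, in that order, with no overlap between their intervals. DUSP6 came after DUSP7 and DUSP8 in control, ahead of DUSP7 in shDIS3L2 and ahead of both in shHNRNPU. DUSP7 was followed by DUSP2 alone in shHNRNPU. The precision differed along this order. The fragments behind a level, estimated from its interval, ranged from 20.7 for DUSP2 in control to 2572 for DUSP9 in control, and the interval reached 44.0% of the level to either side for the first and 3.94% for the second.

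**Figure D2:**
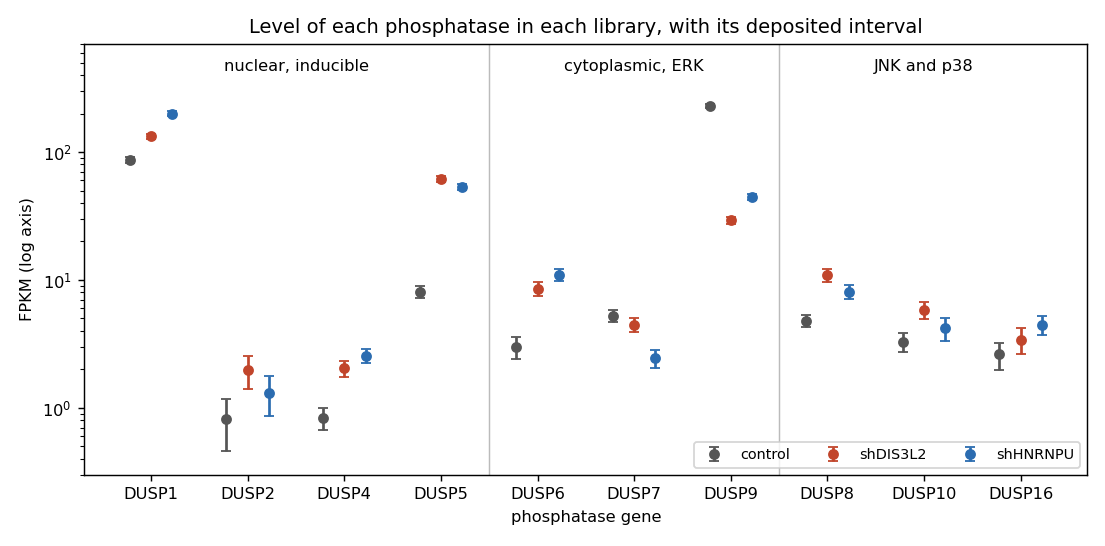
Points give the FPKM of each phosphatase gene on a log axis in control, shDIS3L2 and shHNRNPU, bars the deposited interval, and the genes are ordered by group. DUSP9 lies highest in control at 229 FPKM and at 29.3 and 44.5 in the knockdowns, and DUSP5 lies at 8.08 FPKM in control and at 61.9 and 53.3.

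By the size rule, 3 of 10 members were higher and 1 lower in shDIS3L2 than in control, where 8.96% and 7.59% of the 11748 genes tested were called higher and lower. In shHNRNPU 3 members were higher and 1 lower, where 8.34% and 7.43% of all genes were. Leaving out DUSP5 and DUSP9, whose differences chose them, 2 of the other 8 members were higher and 0 lower in each knockdown. The median log2 ratio of all 10 was 0.68 in shDIS3L2 and 0.63 in shHNRNPU, against 0.09 and 0.12 over all genes tested. By the intervals alone, whatever the size, 7 of 10 members lay above control and 1 below in shDIS3L2, against 32.8% and 25.4% of all genes. In shHNRNPU 6 lay above and 2 below, against 35.0% and 23.5%. Both comparisons share the 1 control library, so a member's 2 ratios are not independent. All 10 members had a mean of at least 1 FPKM over the 3 libraries, the level at which a gene counted as tested.

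**Figure D3:**
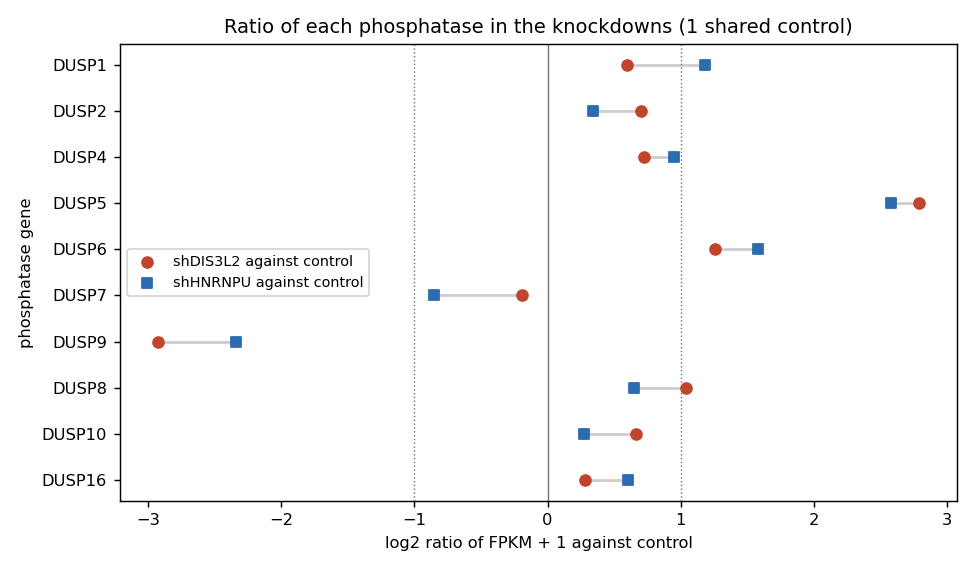
Each row is a phosphatase gene and the x axis is the log2 ratio of FPKM plus 1 against the shared control, with circles for shDIS3L2 and squares for shHNRNPU, and dotted lines at the size threshold of 1 in either direction. DUSP5 lies farthest to the right at 2.79 and 2.58, DUSP9 farthest to the left at -2.93 and -2.34, and DUSP7 is the other gene left of 0.

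The start regions of the genes were searched for short sequence motifs. Entries of a RefSeq table of promoters (build GRCh38.p14, while the expression tables use hg19) were used for 8 of the 10 members. They gave 10 start sites, and the 250 bases before each start were used. DUSP4 and DUSP5 were not searched, so the motif counts do not cover them and whether their start regions hold a motif is not known. Both lay above control by their intervals in each knockdown. The cyclic AMP response element, TGACGTCA, the site bound by CREB and ATF factors, was found before DUSP1 and DUSP8 and before none of the other 6. It is its own reverse complement, so both strands are covered. It was present in 1.65% of 35116 regions of the same length. The DUSP1 region holds it 125 bases before the start and the DUSP8 region 118 and 74 bases before. DUSP1 (133 and 199 FPKM against 87.4 in control) and DUSP8 (10.9 and 8.09 against 4.78) both lay above control by their intervals in each knockdown. The match describes letters and is neither a shown binding site nor a cause. Those 2 regions are printed with the element in capitals, followed by the regions of DUSP6, which was also higher in both knockdowns, and of the first of 2 starts of DUSP9, which was lower, as regions without it. All are 5′ to 3′ on the gene's strand.
DUSP1, chr5:172771196-172771445, minus strand: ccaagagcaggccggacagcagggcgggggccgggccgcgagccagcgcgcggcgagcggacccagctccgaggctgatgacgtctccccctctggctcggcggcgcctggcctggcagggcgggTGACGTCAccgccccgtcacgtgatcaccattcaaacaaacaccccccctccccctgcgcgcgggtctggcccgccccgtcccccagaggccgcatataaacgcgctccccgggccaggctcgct
DUSP8, chr11:1572272-1572521, minus strand: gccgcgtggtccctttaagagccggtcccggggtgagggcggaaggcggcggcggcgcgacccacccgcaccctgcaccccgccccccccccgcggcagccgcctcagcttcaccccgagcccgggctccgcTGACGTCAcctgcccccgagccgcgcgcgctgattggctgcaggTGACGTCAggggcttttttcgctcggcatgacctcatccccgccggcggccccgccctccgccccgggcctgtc
DUSP6, chr12:89352502-89352751, minus strand: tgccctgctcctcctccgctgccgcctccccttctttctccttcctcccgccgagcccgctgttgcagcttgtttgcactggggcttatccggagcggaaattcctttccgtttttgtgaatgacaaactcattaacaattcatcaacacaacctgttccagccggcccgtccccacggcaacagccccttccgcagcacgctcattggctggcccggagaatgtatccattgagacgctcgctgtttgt
DUSP9, chrX:153642191-153642440, plus strand: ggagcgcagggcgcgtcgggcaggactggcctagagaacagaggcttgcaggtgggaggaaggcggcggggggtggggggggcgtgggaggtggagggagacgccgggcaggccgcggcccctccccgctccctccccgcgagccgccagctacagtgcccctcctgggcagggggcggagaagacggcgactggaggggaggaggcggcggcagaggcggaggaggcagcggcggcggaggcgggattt
Its core TGACG, which the full element contains and so overlaps, was found before DUSP1 and DUSP8 as well and before none of the other 6 members, against 21.2% of all regions. The E-box CACGTG was found once each before DUSP1 and DUSP2, against 6.34% of all regions. The AP-1 site TGANTCA (6.57% of all regions), the ETS site CCGGAAG (8.52%) and the CArG box bound by serum response factor (1.16%) were found before none of the 8, on either strand. Those letters are absent from these windows, and sites farther away were not searched. The base composition of the regions differed, with 76.4% G and C for the DUSP9 region shown, 76.8% for DUSP8, 74.4% for DUSP1 and 57.2% for DUSP6.

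The 4 nuclear inducible enzymes lay above control in both knockdowns by their levels, with overlapping intervals for DUSP2 in shHNRNPU. DUSP5, a nuclear phosphatase that acts on ERK and anchors it in the nucleus (chromosome 10, 112257596 to 112271302, hg19), stood at 8.08 FPKM in control (7.24 to 8.92), 61.9 in shDIS3L2 (58.5 to 65.4) and 53.3 in shHNRNPU (50.3 to 56.3). Control was low and neither knockdown interval came near it. The level was 7.66 times that of control in shDIS3L2, with 6.56 to 9.03 between the extremes of the intervals, and 6.60 times (5.64 to 7.78) in shHNRNPU. The knockdowns differed from each other by a log2 ratio of -0.21, shHNRNPU being the lower, with intervals that did not overlap.

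DUSP1, the stress-inducible founding member that acts on p38, JNK and ERK (chromosome 5, 172195093 to 172198198), stood at 87.4 FPKM in control (82.8 to 92.0), 133 in shDIS3L2 (126 to 140) and 199 in shHNRNPU (190 to 209). The 3 intervals were separate, with shHNRNPU highest. The log2 ratio of 1.18 in shHNRNPU passed the size rule and that of 0.60 in shDIS3L2 did not. A second transcript overlapping this locus, RP11-779O18.3, reached at most 1.48 FPKM.

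DUSP4, a nuclear phosphatase of ERK and JNK (chromosome 8, 29190581 to 29208185), stood at 0.839 FPKM in control (0.671 to 1.01), 2.03 in shDIS3L2 (1.74 to 2.33) and 2.55 in shHNRNPU (2.23 to 2.87). Both knockdown intervals lay above control and overlapped each other. As plain ratios of FPKM these are 2.42 times (1.73 to 3.47) and 3.04 times (2.22 to 4.27) control. Its log2 ratios of 0.72 and 0.95 missed the threshold because 1 is added to levels this low, and with a pseudocount of 0.1 they were 1.18 and 1.498 and passed. DUSP2, best known from activated immune cells (chromosome 2, 96808905 to 96811179), was the lowest member in each library at 0.822 FPKM (0.460 to 1.18), 1.96 (1.39 to 2.53) and 1.31 (0.868 to 1.76). The shDIS3L2 interval lay above that of control, and that of shHNRNPU overlapped both. Its log2 ratios were 0.70 and 0.35, and the first became 1.16 with a pseudocount of 0.1.

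The cytoplasmic ERK phosphatases did not share a direction. DUSP9, an ERK phosphatase known from placenta, kidney and the liver's response to insulin (chromosome X, 152907946 to 152916781), stood at 229 FPKM in control (220 to 238), 29.3 in shDIS3L2 (27.3 to 31.3) and 44.5 in shHNRNPU (42.0 to 47.1). Control was high and the 3 intervals were separate. Control stood at 7.84 times shDIS3L2 (7.05 to 8.74) and 5.15 times shHNRNPU (4.68 to 5.67), which are log2 ratios of -2.93 and -2.34. shHNRNPU was 1.52 times shDIS3L2.

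DUSP6, the cytoplasmic ERK phosphatase most often used as a readout of ERK activity (chromosome 12, 89741009 to 89747899 in control), stood at 2.99 FPKM in control (2.42 to 3.55), 8.52 in shDIS3L2 (7.46 to 9.58) and 10.95 in shHNRNPU (9.79 to 12.1). The 3 intervals were separate, with control lowest. Its log2 ratios of 1.26 and 1.58 passed the size rule, and with a pseudocount of 5 they were 0.76 and 0.998 and did not. The locus ends at 89747899 in control and at 89747048 in both knockdowns, and the part of this difference in the levels was not tested.

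DUSP7, the third cytoplasmic enzyme (chromosome 3, 52082935 to 52090566), stood at 5.25 FPKM in control (4.68 to 5.81), 4.47 in shDIS3L2 (3.91 to 5.03) and 2.46 in shHNRNPU (2.06 to 2.86). Control and shDIS3L2 overlapped and shHNRNPU lay below both. Control was 2.14 times shHNRNPU (1.64 to 2.83), and the log2 ratio of -0.85 missed the threshold, while with a pseudocount of 0.1 it was -1.06 and passed. The 3 cytoplasmic enzymes summed to 238 FPKM in control, 42.3 in shDIS3L2 and 57.95 in shHNRNPU, nearly all of it DUSP9 in control. Without DUSP9, DUSP6 and DUSP7 together stood at 8.23, 12.99 and 13.4 FPKM, with control lowest.

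The 3 phosphatases that prefer JNK and p38 lay above control in both knockdowns by their levels, with log2 ratios of at most 1.04 and overlapping intervals for DUSP10 in shHNRNPU and DUSP16 in shDIS3L2. DUSP8, which acts mainly on JNK (chromosome 11, 1575274 to 1594130 in control), stood at 4.78 FPKM in control (4.28 to 5.29), 10.9 in shDIS3L2 (9.68 to 12.1) and 8.09 in shHNRNPU (7.11 to 9.06). The 3 intervals were separate. Its log2 ratio of 1.04 in shDIS3L2 passed the size rule narrowly, and after rescaling of the libraries by median of ratios it was 0.95 and did not. In shHNRNPU it was 0.65. The locus ends at 1593150 in both knockdowns, and the part of this difference in the levels was not tested.

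DUSP10, a phosphatase of p38 and JNK with a role in immune responses (chromosome 1, 221874766 to 221915518), stood at 3.29 FPKM in control (2.76 to 3.82), 5.80 in shDIS3L2 (4.91 to 6.69) and 4.18 in shHNRNPU (3.34 to 5.02). shDIS3L2 lay above control and shHNRNPU overlapped both. DUSP16, which shuttles between nucleus and cytoplasm and acts on JNK (chromosome 12, 12627047 to 12715770 in control), stood at 2.62 FPKM (1.99 to 3.24), 3.40 (2.62 to 4.18) and 4.49 (3.72 to 5.25). Here shHNRNPU lay above control and shDIS3L2 overlapped both. The log2 ratios in shDIS3L2 and shHNRNPU were 0.67 and 0.27 for DUSP10 and 0.28 and 0.60 for DUSP16. The group summed to 10.7 FPKM in control, 20.1 in shDIS3L2 and 16.8 in shHNRNPU.

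The knockdowns were also set against each other. No member passed the size rule between shHNRNPU and shDIS3L2, where 10.2% of all genes were higher and 10.5% lower in shHNRNPU. By the intervals alone, 3 members were higher in shHNRNPU (DUSP1, DUSP6, DUSP9) and 3 lower (DUSP5, DUSP7, DUSP8), against 31.8% and 28.4% of all genes. The log2 ratios ran from -0.66 for DUSP7 to 0.59 for DUSP9. The intervals of DUSP2, DUSP4, DUSP10 and DUSP16 overlapped between the knockdowns.

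The genes whose pair of log2 ratios against control lay nearest to that of DUSP5, among 5607 protein-coding genes with a mean of at least 5 FPKM, were EREG, MT2A, RASD1, ADM and RHOB. EREG encodes epiregulin, a ligand of the EGF receptor, and stood at 2.64 FPKM in control, 19.2 in shDIS3L2 and 22.4 in shHNRNPU, at a distance of 0.34 on the log2 scale. MT2A, a metallothionein, stood at 432, 2342 and 1817 FPKM, at a distance of 0.62. The other 3 were at 0.93 to 1.11. Nearest to DUSP9 were SERPINF2, TM4SF4, SERPINA6, GJB1 and GLP2R. SERPINF2, which encodes alpha-2-antiplasmin of the liver, stood at 504, 56.4 and 102 FPKM, at a distance of 0.22, and SERPINA6, the liver's corticosteroid-binding globulin, at 238, 44.0 and 33.2, at 0.70. The likeness is over 3 libraries, with control in both ratios.

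Some tested genes that lie near DUSP9 and DUSP5 on their chromosomes were read as well, chosen after the levels were seen. Near DUSP9, HAUS7, FAM58A, RP11-66N11.8 and BCAP31 passed the size rule in neither knockdown, with log2 ratios between -0.92 and 0.25. BCAP31, 49.2 kb away, stood at 292 FPKM in control, 348 in shDIS3L2 and 316 in shHNRNPU. SLC6A8 was at 30.9 and 23.5 FPKM in control and shDIS3L2 and listed at 0 in shHNRNPU, which can be a failed estimate. Near DUSP5, SMC3, 56.1 kb away, stood at 1.35, 2.38 and 3.91 FPKM and was called higher in shHNRNPU (1.06). The closest, RP11-525A16.4 at 1.63 kb, was at 0.160 FPKM in control and 9.34 in shDIS3L2 with overlapping intervals, and listed at 0 in shHNRNPU. The members themselves lie on 9 chromosomes, so that DUSP6 and DUSP16 alone share one.

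Genes of the MAP kinases, atypical ones included, were measured beside the phosphatases. Of 13 MAP kinase genes, 9 had a mean of at least 1 FPKM, and 1 of them was higher and 0 lower in each knockdown. That gene was MAPK6, which encodes the atypical kinase ERK3, at 4.43 FPKM in control (3.69 to 5.16), 10.6 in shDIS3L2 (9.53 to 11.7) and 12.4 in shHNRNPU (11.2 to 13.6). The median log2 ratio of the 9 was -0.09 in shDIS3L2 and 0.24 in shHNRNPU. Of 7 MAP kinase kinases, MAP2K6, an activator of p38, was lower in shDIS3L2 (2.79 to 0.762 FPKM), and MAP2K1 was listed at 0 in control and shHNRNPU and at 47.1 FPKM in shDIS3L2. A level listed at 0 can be a failed estimate, so no fold is given for it.

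Transcripts known to follow ERK activity were counted next. Of 13 listed, which hold none of the 10 phosphatases, 11 were measured. In shDIS3L2 5 were higher and 0 lower, with a median log2 ratio of 0.69, and in shHNRNPU 4 and 0, with a median of 0.82. In each count 1 gene, FOSL1, was listed at 0 in control. Over the 10 genes above 0 in every library, 4 and 3 were higher, with medians of 0.59 and 0.71. Of all genes tested, 8.96% were higher and 7.59% lower in shDIS3L2, and 8.34% and 7.43% in shHNRNPU. These shares apply beside the counts of the other lists as well. EPHA2, an ephrin receptor whose locus bounds differ between libraries, stood at 10.2 FPKM in control, 44.4 in shDIS3L2 and 24.5 in shHNRNPU. SPRY4, a Sprouty inhibitor of RAS signalling, stood at 1.497, 4.92 and 6.84 FPKM. CCND1, which encodes cyclin D1, was called higher in shDIS3L2, at 95.4 FPKM against 37.8 in control. EGR1, an immediate early transcription factor, stood at 3.67 FPKM in control, 1.89 in shDIS3L2 and 17.5 in shHNRNPU, and its intervals put it below control in shDIS3L2, where DUSP4, DUSP5 and DUSP6 lay above.

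Other inhibitors of the pathway were counted too. Of 10 measured Sprouty, SPRED and RAS inhibitors, a list that shares SPRY2 and SPRY4 with the output list, 3 were higher and 0 lower in shDIS3L2 and 3 higher and 1 lower in shHNRNPU, with medians of 0.59 and 0.41. ERRFI1, which restrains the EGF receptor, stood at 17.0, 48.9 and 37.3 FPKM in control, shDIS3L2 and shHNRNPU. SPRED1 was called higher in shDIS3L2 (0.764 to 3.26 FPKM) and SPRED2 in shHNRNPU (4.16 to 22.1 FPKM), and the locus bounds of both differ between libraries. They encode membrane-bound inhibitors of RAS signalling. The lower gene, PEBP1, an inhibitor of RAF, stood at 466, 646 and 143 FPKM. Of 14 measured nuclear factors phosphorylated by MAP kinases, 3 were higher and 1 lower in shDIS3L2 and 4 higher and 0 lower in shHNRNPU, among them JUN at 12.9, 41.6 and 36.8 FPKM. ETS2 was called higher in shDIS3L2 (16.2 to 40.4 FPKM), and JUNB (55.5 to 122 FPKM) and MEF2A (1.62 to 4.68 FPKM) in shHNRNPU. CREB1, which encodes a factor that binds the element found before DUSP1 and DUSP8, was the lower one in shDIS3L2, at 6.34 FPKM in control (4.82 to 7.87), 1.98 in shDIS3L2 (0.876 to 3.08) and 5.77 in shHNRNPU (4.46 to 7.08).

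MAP3 kinases and RAF had 2 of 18 higher and 0 lower in shDIS3L2 and 6 higher and 1 lower in shHNRNPU, with MAP3K14 at 8.58, 19.6 and 24.6 FPKM, and MAP3K3 and MAP3K15 listed at 0 in control. In shHNRNPU TAOK2 was called higher (29.1 to 163 FPKM), in a locus whose bounds differ between libraries, and MAP3K6 was the lower gene (9.10 to 2.25 FPKM). RAS genes and adaptors had 0 of 9 past the rule in shDIS3L2 and 2 higher in shHNRNPU, SOS2, an exchange factor of RAS (1.61 to 4.48 FPKM), and PTPN11, listed at 0 in control. Kinases downstream of MAP kinases had 0 of 9 higher and 1 lower in shDIS3L2 (RPS6KA1, 27.2 to 13.0 FPKM), and none past the rule in shHNRNPU. Of 6 other MAP kinase phosphatases, PPP2CB was higher in shDIS3L2 (32.3 to 82.2 FPKM) and PPM1B in shHNRNPU (11.1 to 31.5 FPKM).

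The atypical dual-specificity phosphatases, mostly small relatives that lack the domain for docking to MAP kinases, set the 10 members against close kin. Of 16 listed, 9 were measured, and 0 were higher and 1 lower in shDIS3L2, the 1 being STYXL1, listed at 0 there. In shHNRNPU 2 were higher, DUSP22 (18.9 to 44.3 FPKM) and DUSP15, listed at 0 in the other libraries, and 1 lower, DUSP3. Their median log2 ratio was 0.24 in shDIS3L2 and -0.32 in shHNRNPU, with the genes listed at 0 included. Over the 7 genes above 0 in every library it was 0.41 and -0.32. That of the 10 members, all above 0, was 0.68 and 0.63. No test of this difference is possible with 1 library per group.

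**Figure D4:**
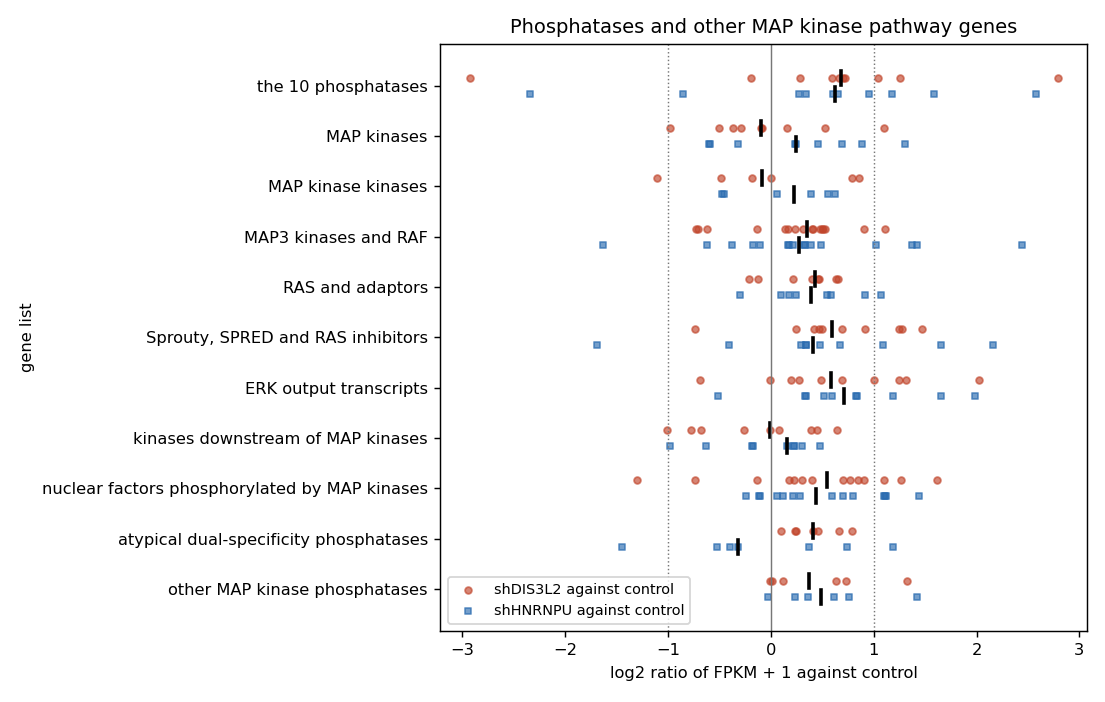
Each point is a gene with a mean of at least 1 FPKM and above 0 in every library, placed by its log2 ratio of FPKM plus 1 against the shared control, with circles for shDIS3L2, squares for shHNRNPU, black bars for medians, and dotted lines at the size threshold. The 10 phosphatases have medians of 0.68 and 0.63, their outermost points are DUSP9 and DUSP5, which were chosen for their differences, and the others lie from -0.85 to 1.58, and the atypical phosphatases have medians of 0.41 and -0.32 over the 7 genes above 0.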

How the data were processed

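RNA-seq of 3 PLC libraries, 1 per group, used a NEBNext Ultra kit, per the labels' protocols, which do not call it stranded. Per the submitters' processing notes, TopHat2 2.0.12, Cufflinks 2.2.1 and build hg19 were used. The authors' deposited values are FPKM per gene with a lower and an upper bound, per the file headers. The level of the bounds is not given and was taken as 95%. The bounds of a locus can differ between libraries.

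Genes were matched by name (names merged in a locus split at commas, and loci with the same names in every library counted once). Of names at more than 1 locus, 174 were read at their most abundant locus among those that overlapped 1 to 1 across the 3 libraries. Names without such a locus were dropped, which left 55725 of 55827 names. Log2 ratios used FPKM plus a pseudocount of 1, which understates differences of low genes. A mean of at least 1 FPKM made a gene tested (11748 genes). Fragments behind a level were estimated as the square of 2 times FPKM over the distance to the upper bound. Among levels worth 20 fragments or fewer, the share within 0.02 of a whole number was 57.7% to 60.5% per library, and so no count test was run. The control table held 0 mitochondrial loci, against 11 and 10, and whether this touches the scaling of FPKM is not known.

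Named were all members, the targeted genes, up to 3 genes per pathway list past the size rule, those listed at 0 or on opposite sides of control, chosen after their values were seen, and the 5 genes most like DUSP5 and DUSP9. Members, lists and motifs were chosen with earlier results of these data known. Some genes are not reported here. Python 3.11.15, pandas 2.3.3 and numpy 2.4.6 were used.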

Additional observations from a re-analysis of the deposited data

Results flagged for a closer look

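Of 99 measured genes of the pathway lists reported here, 12 lay above control in one knockdown and below it in the other by separate intervals. Over all genes tested, 32.8% lay above and 25.4% below control by intervals in shDIS3L2, and 35.0% and 23.5% in shHNRNPU. The share of all genes on opposite sides was not counted, so the 12 are a description and not an excess. With 1 library per group the difference was not tested. Kinases that the 10 phosphatases act on were among them. MAPK3 (ERK1), in a locus merged with a second name, had log2 ratios of -0.99 in shDIS3L2 and 0.23 in shHNRNPU, and MAPK14 (p38 alpha) -0.29 and 0.24. MAP2K7, an activator of JNK, had -0.49 and 0.39, RPS6KA1, a kinase downstream of ERK, -1.01 and 0.30, the adaptor SHC1, also in a merged locus, -0.22 and 0.18, and EGR1 -0.69 and 1.99. The other direction, above control in shDIS3L2 and below it in shHNRNPU, held for MAP3K1 (0.50 and -0.62), PEBP1 (0.47 and -1.69), MYC (0.49 and -0.52) and RPS6KA3 (0.39 and -0.18). The atypical phosphatases DUSP3 and DUSP14 showed it too. DUSP3, also called VHR, was measured at 43.2 FPKM in control, 75.7 in shDIS3L2 and 15.2 in shHNRNPU (0.79 and -1.45), and DUSP14 at 27.3, 37.97 and 18.6 FPKM (0.46 and -0.53). After rescaling by median of ratios all 12 kept the sign of both ratios, with MAPK3, MAPK14 and SHC1 at 0.08, 0.10 and 0.02 in shHNRNPU. Separate intervals did not hold for all of them. Divided by the same factors (0.947 for control, 1.05 for shHNRNPU), the intervals of MAPK3, MAPK14, SHC1 and RPS6KA1 in shHNRNPU overlap those in control.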

How the results depend on the processing

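Among the ratios of single members under 4 other settings, 112 kept their direction and their side of the threshold. Another 4 passed it newly, 4 no longer passed it and none reversed. The sum over loci, 1 of the 4 settings, could not change a ratio, because each member had 1 locus, and its ratios are among the 112. DUSP5 and DUSP9 passed under all 4 settings in both knockdowns. Rescaling by median of ratios moved the median log2 ratio of all genes by 0.09 in shDIS3L2 and 0.12 in shHNRNPU and left DUSP8 at 0.95 in shDIS3L2. The count of members higher in shDIS3L2, 3 as reported, was 5 with a pseudocount of 0.1, 1 with a pseudocount of 5, 2 after rescaling, 7 with a threshold of 0.58, 7 by intervals alone, and 1 without DUSP2, DUSP6, DUSP8 and DUSP16, that is, over members with the same locus bounds in every library, a setting chosen after seeing the data. In shHNRNPU the count of higher members, 3, was 4 with a pseudocount of 0.1, 2 with a pseudocount of 5, 2 over members with the same locus bounds, 6 with a threshold of 0.58 and 6 by intervals alone, and that of lower members, 1, was 2 with a pseudocount of 0.1, with a threshold of 0.58 and by intervals alone. Between shHNRNPU and shDIS3L2 the counts of 0 became 2 higher and 1 lower with a threshold of 0.58, and 3 and 3 by intervals alone. Single-name loci, a mean of at least 1 FPKM and the sum over loci could not change the counts. All 10 members met the first 2 settings and had 1 locus each. No paired analysis was possible because each group has 1 library. Depth limits DUSP2 most, whose interval reached 44.0% of its level in control.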
